A study of Rattus norvegicus with 48 samples.

Results

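The renal cortex of rats given apocynin on top of a hydroxy-L-proline (HLP) diet was compared with the cortex of rats on the HLP diet alone. The comparison used 12 of the 48 arrays of the series, 6 HLP+Apocynin and 6 HLP, chosen by the names that the signal table gives its columns. By these names both groups were male rats that ate chow with 5% HLP for 28 days, and the HLP+Apocynin rats also drank water with 4 mM apocynin. HLP was then shared by all 12 and apocynin set them apart, although the deposited tables disagree on HLP for some arrays, as given below. The sample labels call the strain Wistar, whereas the methods name Sprague-Dawley, and the labels state an age of 28 days, which is also the length of the treatment. RNA of the dissected cortex was hybridized to Illumina RatRef-12 BeadChips, 1 array a rat. The other arrays held the medulla of the same rats and the cortex and medulla of rats on plain chow, with or without apocynin.

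HLP is broken down in liver and kidney to glyoxylate and then oxalate, which is excreted in urine and can crystallize with calcium in the tubules. NADPH oxidases are membrane enzymes that pass electrons from NADPH to oxygen and so make superoxide. Apocynin is used as an inhibitor of NADPH oxidase because it hinders the movement of cytosolic subunits, such as the one encoded by Ncf1, to the membrane. An array of whole cortex reads the RNA of all its cells, so fewer cells of a type and less RNA per cell cannot be told apart.

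Some properties of the arrays bear on every value below. A second deposited table, of log2 values, gave 40 of the 48 arrays another sample's name and 24 another group, and which table is right is not known. No array changed tissue or apocynin status between the tables, and 3 HLP+Apocynin and 3 HLP cortex arrays, those numbered 2, 4 and 6 in each group, kept their group in both. The log2 table places HLP+Apocynin arrays 1, 3 and 5 in the Apocynin group and HLP arrays 1, 3 and 5 in the Control group. Neither of those groups had HLP, so the tables disagree on whether these rats received it. The HLP+Apocynin and HLP arrays lay in different column blocks of the signal table under either set of names, so block and apocynin cannot be told apart. Before normalization the median signal of an array was 43.7 to 46.9 in HLP+Apocynin and 36.6 to 39.7 in HLP, a difference of 6.97 with no overlap (exact two-sided permutation test, p = 0.00216, the smallest that 6 against 6 arrays allow). HLP+Apocynin array 3 stood apart, with a mean correlation to the arrays of its group of 0.974, against 0.984 to 0.988 for the other HLP+Apocynin arrays.

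In these arrays 1137 of 11392 tested probes, or 9.98%, passed an adjusted p of 0.05 in limma, with 541 (4.75%) higher in HLP+Apocynin and 596 (5.23%) lower. Detection on 6 of the 12 arrays was asked for, so a probe could be tested through the group in which it was higher. Where detection on all 12 arrays was required, 383 of 9554 probes passed. The 2 groups of arrays did not overlap at 661 of the tested probes (5.80%), and at the probes of 393 of 8246 genes (4.77%). Most of the 1137 calls were small differences close to background. Of the 1137, 829 had a mean log2 signal under 7, close to the floor of the scale, and their median absolute change was 0.08 on the log2 scale. The other 308 probes, 102 higher (1.60%) and 206 lower (3.22%), were 4.82% of the 6389 tested at a mean log2 signal of 7 or more, and their median absolute change was 0.42. Among them were 67 genes that rose (1.33%) and 146 that fell (2.90%), of 5043. No more than 8 probes of all 11392 passed with a change of at least 2-fold. Leaving out single arrays gave 744 to 1603 calls, with the lowest counts without HLP array 4 (744) and HLP array 6 (757). The count of called brighter probes moved more, with 124 without HLP array 4, 135 without HLP array 6, 161, 170 and 192 without HLP arrays 3, 2 and 5, 167 and 201 without HLP+Apocynin arrays 2 and 3, and 584 without HLP+Apocynin array 6. The plot of change against signal level shows the wedge of dim calls at the left and the scattered larger changes to its right.

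**Figure D1:**
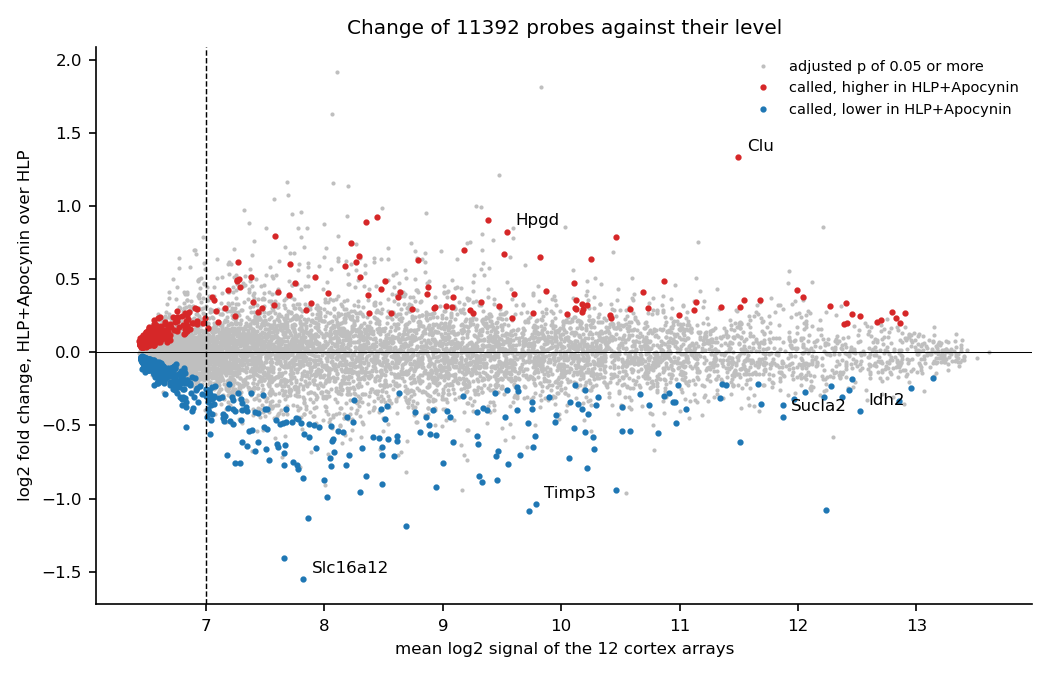
Each point is a probe, placed by its mean log2 signal over the 12 cortex arrays and its log2 fold change, HLP+Apocynin over HLP. Red points were called higher and blue points lower at an adjusted p under 0.05 in limma, and the dashed line marks a mean log2 signal of 7, left of which lie 829 of the 1137 calls.

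The 6389 brighter probes were also tested alone, a choice made after seeing the values above. The changes stayed those of the full fit, while the variance trend and the adjustment for multiple tests were taken from these probes only. A call lost here therefore does not mean a signal near the floor. 43 probes then passed, 13 higher and 30 lower, for 10 genes that rose and 21 that fell. All 21 genes that fell also passed with arrays scaled to one median instead of quantile normalized, as did 1 of the 10 that rose, Hpgd. Median scaling put the median change of the brighter probes at −0.12, and the split of all calls at 346 higher and 609 lower (36.2% higher, against 47.6% with quantile normalization). The authors' own log2 values gave 471 higher and 1008 lower (31.8%). In the brighter probes of the full fit the split of 102 higher and 206 lower became 3 higher and 236 lower with median scaling, and 31 higher and 359 lower on the authors' values, so most of the brighter rises were not called under either. Without HLP+Apocynin array 3, 16 brighter probes passed, 5 higher and 11 lower. Slc16a12, Cmtm6 and Sugct, which fell, and Hpgd, which rose, passed in each of the 31 alternatives run, and no other named gene of that brightness did. Of 47 named genes of that brightness called in the full fit, 13 passed and 34 did not when the brighter probes were tested alone. Clu, Grem1, Matn1, Hykk, Slc25a23, Slc25a30, Paqr7 and Hjv, described below, were among the 34.

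The largest fall was that of Slc16a12, which encodes a plasma membrane carrier of creatine. Its log2 signal was 6.78 to 7.44 (median 6.98) on the HLP+Apocynin arrays, against 7.48 to 9.29 (median 8.70) on the HLP arrays. The groups did not overlap, and the change was −1.55 ± 0.26 (SE) on the log2 scale (limma, adjusted p = 0.00222). The HLP group varied most, with its lowest array just above the highest of HLP+Apocynin. Sugct encodes a mitochondrial enzyme that turns glutarate, a product of lysine breakdown, into glutaryl-CoA. It had log2 signals of 8.57 to 9.31 (median 9.05) on the HLP+Apocynin arrays, against 9.44 to 10.19 (median 9.93) on the HLP arrays. All 6 HLP+Apocynin arrays lay below all HLP arrays, with a change of −0.87 ± 0.14 (SE) (limma, adjusted p = 0.00187). Hykk, the kinase that starts the breakdown of free hydroxylysine, ranged from 8.19 to 9.77 (median 9.23) on the HLP+Apocynin arrays, against 9.61 to 10.70 (median 10.39) on the HLP arrays. Its groups overlapped at the edge, and it fell by 1.08 (limma, adjusted p = 0.0169).

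Timp3, an inhibitor of metalloproteinases that is bound to the matrix, had log2 signals of 8.59 to 9.58 (median 9.35) on the HLP+Apocynin arrays, against 9.76 to 10.76 (median 10.35) on the HLP arrays. The groups were apart, and the change was −1.04 ± 0.19 (SE) (limma, adjusted p = 0.00392). HLP+Apocynin array 3 had the lowest Timp3 value, and without it the change was −0.90 (adjusted p = 0.00358). Cmtm6 encodes a surface protein that keeps the immune ligand PD-L1 from being degraded. Its 6 HLP+Apocynin arrays lay in a narrow band, 7.39 to 7.70 in HLP+Apocynin, against 7.85 to 8.81 in HLP, a change of −0.87 ± 0.14 (SE) (limma, adjusted p = 0.00178). Matn1, a matrilin of the cartilage matrix, ranged from 7.23 to 8.82 in HLP+Apocynin, against 9.02 to 9.68 in HLP, again without overlap, and fell by 1.18 (limma, adjusted p = 0.0125). Sh3bgrl1, a small protein of the thioredoxin fold, fell by 0.86 with no overlap (limma, adjusted p = 0.00245).

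Slc25a23, a mitochondrial carrier of ATP-Mg and phosphate, fell by 0.99 (limma, adjusted p = 0.017), with 2 HLP+Apocynin arrays reaching into the HLP range. Slc25a30, a carrier of the inner mitochondrial membrane in kidney, fell by 0.90 (limma, adjusted p = 0.0169), but a second probe of the gene changed by −0.09 and did not pass. Slc22a2, the organic cation transporter of the basolateral proximal tubule, fell by 0.58 (limma, adjusted p = 0.0378). Ugt1a6, which joins glucuronic acid to phenols, had log2 signals of 9.25 to 9.85 in HLP+Apocynin, against 9.75 to 10.39 in HLP and fell by 0.64 (limma, adjusted p = 0.0069). Cyp4a1, a fatty acid hydroxylase, fell by 0.71 (limma, adjusted p = 0.0295), while its second probe changed by −0.23 and did not pass. Me1, the cytosolic malic enzyme that makes NADPH, was 8.29 to 8.82 in HLP+Apocynin, against 9.0 to 9.38 in HLP, without overlap, and fell by 0.50 (limma, adjusted p = 0.0115). Oat, ornithine aminotransferase, fell by 0.27 with the groups apart (limma, adjusted p = 0.0225). Falls were also called for Paqr7, a membrane progestin receptor (−0.84, limma adjusted p = 0.0126), and Hjv, a co-receptor of bone morphogenetic proteins in iron control (−0.80, limma adjusted p = 0.0146), both without overlap. Gmfb, a regulator of actin branching, fell by 0.75 and Atad1, an ATPase of the outer mitochondrial membrane, by 0.71 (limma, adjusted p = 0.00909 and 0.0175). Mtrex, an RNA helicase of the nuclear exosome, fell by 0.75 (0.00491), but its second probe changed by 0.03 and did not pass.

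Hpgd, the enzyme that inactivates prostaglandins, was the rise that passed in all 31 alternatives. Its log2 signal was 9.45 to 10.34 (median 10.01) on the HLP+Apocynin arrays, against 8.93 to 9.28 (median 9.15) on the HLP arrays. The groups were apart, and the change was 0.83 ± 0.14 (SE) (limma, adjusted p = 0.00228). The largest called rise was that of Clu, which encodes clusterin, a secreted chaperone that injured tubules are known to express. Clu had log2 signals of 11.08 to 13.14 (median 12.29) on the HLP+Apocynin arrays, against 10.52 to 11.02 (median 10.95) on the HLP arrays. Every HLP+Apocynin array lay above every HLP array, although the lowest did so by only a few hundredths of a log2 unit, and HLP+Apocynin arrays 1 to 4 made up the upper values. The change was 1.34 ± 0.31 (SE) (limma, adjusted p = 0.0168), and 1.18 without HLP+Apocynin array 3 (adjusted p = 0.03).

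Nedd4, a ubiquitin ligase, had log2 signals of 8.31 to 8.86 (median 8.56) on the HLP+Apocynin arrays, against 7.76 to 8.06 (median 8.02) on the HLP arrays, without overlap, and rose by 0.62 (limma, adjusted p = 0.00392). Grem1, the secreted antagonist of bone morphogenetic proteins, ranged from 9.30 to 10.48 in HLP+Apocynin, against 8.45 to 9.37 in HLP and rose by 0.90 (limma, adjusted p = 0.0257). Its groups overlapped by 1 array on either side. Wfdc2, a secreted protein of the whey acidic protein family, rose by 0.70 (limma, adjusted p = 0.0119), and Rarres2, which encodes the attractant chemerin, by 0.65 (adjusted p = 0.0178), both without overlap. Rarres2 was highest on HLP+Apocynin array 3, at 10.85. Rises that passed with overlapping groups were those of Rnase4, a secreted ribonuclease (0.92), Ddx6, an RNA helicase of processing bodies (0.79), Ccnb2, a mitotic cyclin (0.79), Tns1, a protein of focal adhesions (0.67), and St3gal2, a sialyltransferase (0.63), with limma adjusted p-values of 0.0426, 0.016, 0.0208, 0.0164 and 0.0369. Gstm1, a glutathione transferase, was 10.23 to 11.36 in HLP+Apocynin, against 9.68 to 10.16 in HLP and rose by 0.64 (limma, adjusted p = 0.0273). Of these rises Grem1 alone also passed with median scaling, where the other 9 genes had adjusted p-values in limma of 0.0591 (Rarres2) to 0.2 (St3gal2).

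**Figure D2:**
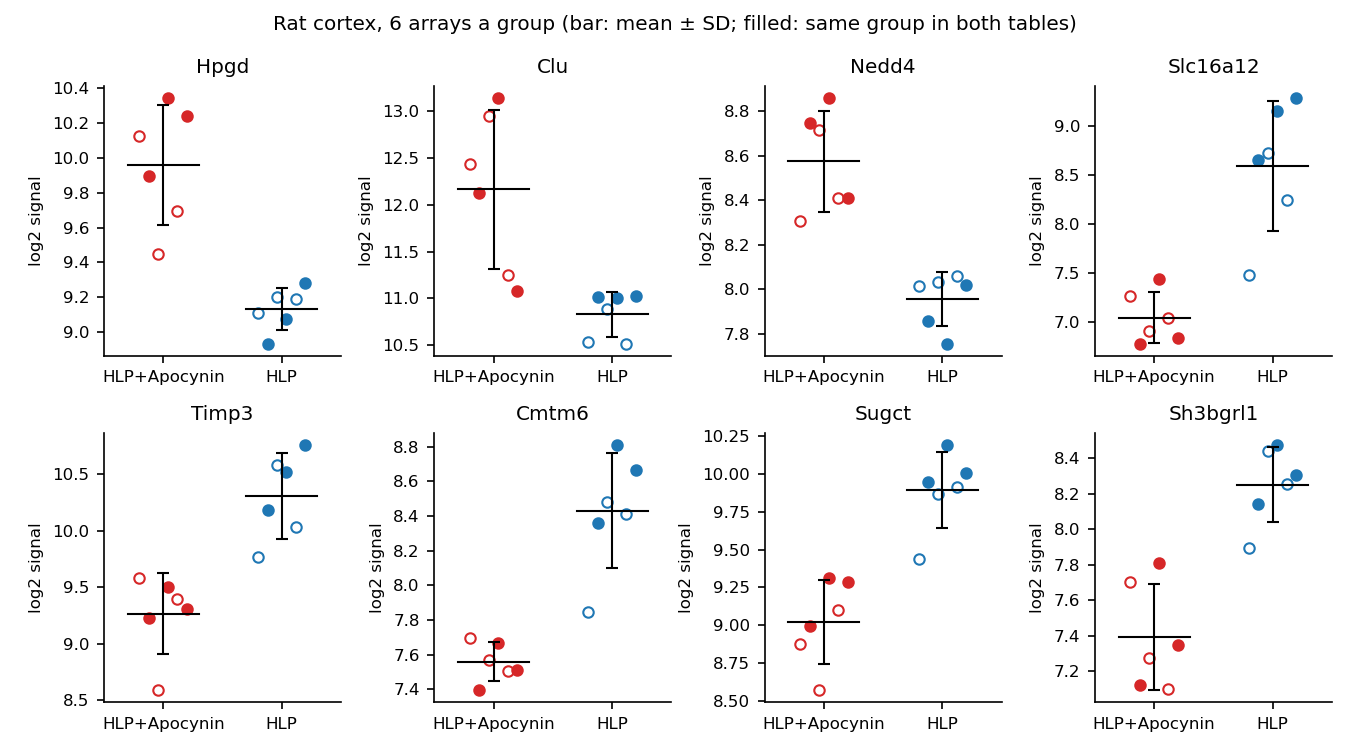
Log2 signal of 8 genes on each cortex array, with 6 HLP+Apocynin arrays in red on the left and 6 HLP arrays in blue on the right. Bars give the mean and SD, and filled points are the 3 arrays a group that belong to the same group in both tables. No gene shown has overlapping groups. Hpgd, Clu and Nedd4 were higher in HLP+Apocynin, and Slc16a12, Timp3, Cmtm6, Sugct and Sh3bgrl1 lower.

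The names of the log2 table were then used in place of those of the signal table, which left 3 arrays of each group in place and exchanged the other 3. 1159 of 11414 probes passed, or 10.2%, with 658 higher and 501 lower. Of 11271 probes tested both ways, 724 (6.42%) were called in the same direction under both names and 0 in opposite directions. These were 63.7% of the calls with one set of names and 62.5% of those with the other. Part of this agreement was built in, since both fits held the same 3 arrays of each group. The exchanged arrays also kept their apocynin status, and the share built in was not measured. Under the log2 names the change of Slc16a12 was −1.38 (limma, adjusted p = 0.00412), that of Sugct −0.90 (1.15e-04), that of Hpgd 1.13 (0.00106) and that of Clu 1.20 (0.0117). Of 76 named calls 74 could be tested with these names, of which 47 passed in the same direction, 26 did not pass and 1, that of Cldn19, turned round. The 26 included Car12, Paqr7, Hjv, Me1, Ugt1a6, Cyp4a1 and Slc22a2 among the falls and Gstm1, St3gal2, RT1-DMa, Psme1 and Rpl19 among the rises, with adjusted p-values in limma of 0.0715 (Ugt1a6) to 0.44 (St3gal2) and unchanged directions.

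The 3 HLP+Apocynin and 3 HLP arrays that both tables place alike are free of the conflict over groups, though some carry another number. With these, 345 probes passed (limma, 89 of them of mean log2 signal 7 or more, 20 higher and 69 lower). Slc16a12 changed by −2.01 (adjusted p = 0.0198), Cmtm6 by −1.09 (0.0213), Timp3 by −1.14 (0.0213) and Sugct by −0.85 (0.0213). Hpgd rose by 1.06 (0.0213) and Nedd4 by 0.79 (0.0394). Clu changed by 1.10 and did not pass (adjusted p = 0.201). Of the 76 named calls 25 passed with these arrays and 51 did not, among them also Grem1, Wfdc2, Tns1, Ddx6, Matn1, Hykk, Slc25a23, Sh3bgrl1, Hjv, Me1 and Oat. Some calls ended when 1 array was left out. Ccnb2 lost its call without HLP array 4. Cldn19 lost its call without HLP array 4. Grem1 lost its call without HLP+Apocynin arrays 1 or 2 or HLP arrays 4 or 6. Gstm1 lost its call without HLP arrays 3, 4 or 5. Oat lost its call without HLP arrays 2 or 6. Rpl39 lost its call without HLP arrays 4 or 6. The calls of Car12 (6), Car2 (5), Cs (9), Cyp4a1 (6), Hnf4a (10), Ifit2 (5), Kcnj1 (9), RT1-DMa (10), Rnase4 (9), Rpl19 (6), Slc22a2 (7) and St3gal2 (7) each ended under several of the 12 omissions of 1 array, by the number in parentheses, and rest on the full set.

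**Figure D3:**
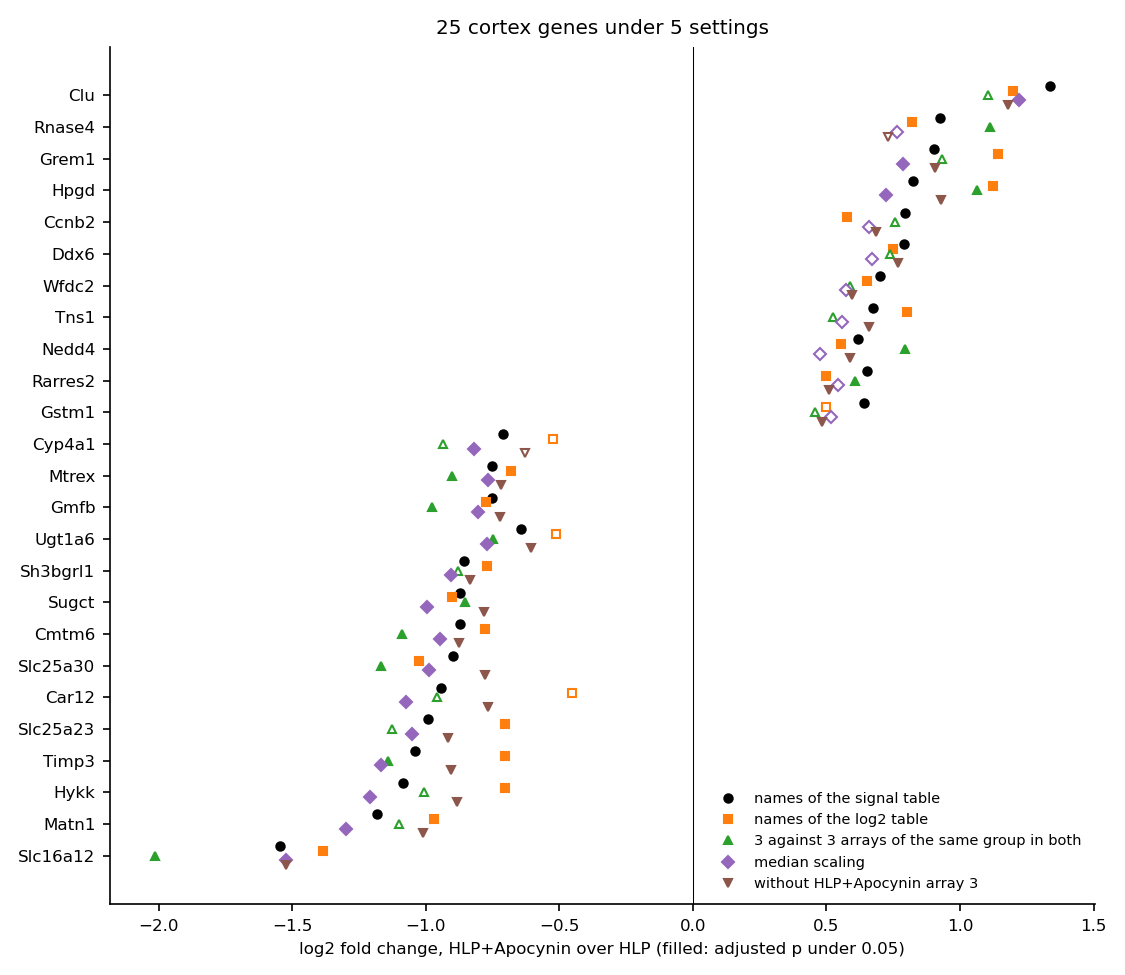
Log2 fold change of 25 genes, HLP+Apocynin over HLP, under 5 settings. Markers are filled where the adjusted p was under 0.05 in limma and open where it was not. Every gene keeps its direction in all 5, while the filled markers thin out among the rises with median scaling and among both kinds with 3 against 3 arrays.

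The study asked what apocynin does to the NADPH oxidase system, so 28 genes it names for the oxidase, its activation and crystals were followed one by one. None of the 23 of them that could be tested here passed, where 8.39% of all genes did. The membrane subunits of the oxidase are encoded by Cybb and Cyba, and Nox4 encodes the form of renal tubules. Cybb ranged from 6.91 to 8.39 (median 7.32) on the HLP+Apocynin arrays, against 6.96 to 7.27 (median 7.07) on the HLP arrays, a change of 0.33 (limma, adjusted p = 0.296). Its highest value was that of HLP+Apocynin array 3. Cyba was among the brightest of these genes and ranged from 12.93 to 13.21 (median 13.10) on the HLP+Apocynin arrays, against 13.04 to 13.19 (median 13.08) on the HLP arrays. The groups lay on top of each other, with a change of −0.01 (limma, adjusted p = 0.952). Nox4 was 9.67 to 11.02 in HLP+Apocynin, against 10.30 to 11.14 in HLP, a change of −0.36 (limma, adjusted p = 0.298) that turned to 0.36 with log2 naming (0.468). Ncf1, the cytosolic organizer subunit, changed by 0.25 and Ncf4, the regulatory subunit, by 0.05 (limma, adjusted p = 0.508 and 0.0904). The small GTPases Rac1 and Rac2 changed by −0.19 and 0.31. Rap1a, a further small GTPase, had log2 signals of 7.18 to 7.27 (median 7.24) on the HLP+Apocynin arrays, against 7.05 to 7.16 (median 7.13) on the HLP arrays. Its groups did not overlap, and the change of 0.13 did not pass (limma, adjusted p = 0.114).

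The genes of the renin-angiotensin system, which can activate the oxidase through its receptors, did not pass either. Agt, the precursor of angiotensin, had log2 signals of 6.63 to 7.11 (median 6.73) on the HLP+Apocynin arrays, against 6.61 to 6.91 (median 6.76) on the HLP arrays, a change of 0.02 (limma, adjusted p = 0.921). With log2 naming its change was −0.64 (0.5). The angiotensin receptors Agtr1a and Agtr1b changed by −0.08 and −0.12, and the probes of Agtr2 and Tnf were detected on too few arrays to be tested. Of the enzymes that remove reactive oxygen, Sod1 was 13.23 to 13.42 in HLP+Apocynin, against 13.27 to 13.42 in HLP and Cat 12.14 to 12.70 in HLP+Apocynin, against 12.32 to 12.70 in HLP, with changes of −0.05 and −0.06 and overlapping groups. The kinases and phospholipases named as links to the oxidase changed by 0.20 (Plcg1), 0.01 (Plcg2), −0.04 (Src), 0.04 (Ptk2), 0.20 (Ptk2b) and 0.09 (Mapk14), with limma adjusted p-values of 0.249 or more. In the wider list of such signalling genes 1 of 15 passed, Itpr3, a receptor of inositol trisphosphate, which was dim and fell by 0.05 (limma, adjusted p = 0.0161). It also passed with log2 naming (0.042). Its probe was detected on 1 HLP+Apocynin and 6 HLP arrays. Itpr3 thus met the filter through the group in which it was higher, and its HLP+Apocynin values lie at the floor.

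The genes the study names for crystal modulation did not pass. Spp1, which encodes osteopontin, had log2 signals of 11.52 to 13.42 in HLP+Apocynin, against 11.14 to 12.16 in HLP, with HLP+Apocynin arrays 1 to 4 above the HLP range. The groups overlapped, and the change of 0.86 did not pass (limma, adjusted p = 0.134). Mgp, matrix Gla protein, ranged from 11.39 to 13.24 in HLP+Apocynin, against 11.25 to 11.89 in HLP, a change of 0.56 (adjusted p = 0.158). Ccl2, the monocyte attractant, had the same median in both groups, 6.60, and 1 HLP+Apocynin array at 7.51. Umod, the Tamm-Horsfall protein of the thick ascending limb, changed by −0.14 (limma, adjusted p = 0.286).

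Lists of genes were read by their counts and medians, beside a median change of −0.0009 over all 8246 genes tested, of which 3.75% were called higher and 4.64% lower. In the list of tubular injury all 16 tested genes were higher in HLP+Apocynin, with a median change of 0.49, but 1 passed, Clu. The same was seen in the list of matrix and fibrosis, where 25 of 25 genes were higher with a median of 0.49, and in that of macrophages, 14 of 14 with a median of 0.35. In these, 1 gene (Mmp2, a matrix metalloproteinase whose probe was dim, with a change of 0.10) and 0 genes passed in limma. Members with large changes that did not pass, picked after their values were seen, were Lcn2, the injury marker lipocalin 2 (1.63, adjusted p = 0.141), Timp1, a metalloproteinase inhibitor (1.14, 0.169), Fn1, fibronectin (0.96, 0.186), and Lgals3, galectin 3 of macrophages (0.77, 0.191).

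HLP+Apocynin array 3 was far above the others in these 3 lists. The mean log2 difference of the injury genes from their mean over the 12 arrays was 1.63 on that array, −0.32 to 0.40 on the other HLP+Apocynin arrays and −0.35 to −0.27 on the HLP arrays. HLP+Apocynin arrays 1, 2 and 4 lay above the HLP range, and arrays 5 and 6 lay within it. Macrophage genes stood at 1.12 on array 3, and matrix genes at 1.60. Without that array the medians were 0.26 (injury), 0.23 (matrix) and 0.17 (macrophage). With log2 naming, which gives array 3 to the Apocynin group, they were 0.12, 0.13 and 0.13. The NADPH oxidase list, with 5 of 8 genes higher and a median of 0.09, was also highest on array 3, at 0.30, against −0.15 to 0.08 on the HLP arrays. The part of this array in these results was not tested beyond leaving it out.

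In the list of the tricarboxylic acid cycle, 16 of 17 genes were lower with a median of −0.12, and 4 passed. HLP+Apocynin array 3 stood at −0.34 for this list, against −0.09 to 0.04 on the other HLP+Apocynin arrays and −0.02 to 0.14 on the HLP arrays, and without it the median was −0.08. Sucla2, a subunit of succinyl-CoA ligase, had log2 signals of 11.31 to 11.86 (median 11.72) on the HLP+Apocynin arrays, against 11.93 to 12.14 (median 12.12) on the HLP arrays, without overlap, and fell by 0.44 (limma, adjusted p = 0.00829). Cs, citrate synthase, fell by 0.41, Idh2, the mitochondrial NADP-linked isocitrate dehydrogenase, by 0.40, and Idh1, its cytosolic counterpart, by 0.24 (limma, adjusted p = 0.0422, 0.0183 and 0.0463). None of the 4 passed with log2 naming, where the median of the list was −0.04. Without array 3 the change of Cs was −0.38 (adjusted p = 0.0767).

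Among markers of intercalated cells, which secrete acid or base in the collecting duct, 13 of 16 were lower and 2 passed, the carbonic anhydrases Car12 and Car2. Car12 was 9.12 to 10.69 in HLP+Apocynin, against 10.10 to 11.43 in HLP, a change of −0.94, and Car2 12.19 to 12.41 in HLP+Apocynin, against 12.40 to 12.76 in HLP, a change of −0.26 (limma, adjusted p = 0.0319 and 0.0316). The median of the list was −0.17, and 0.02 with log2 naming. Of 26 markers of the proximal tubule, 20 were lower with a median of −0.08, and 2 passed. One was Hnf4a, a transcription factor of that segment (−0.46, limma adjusted p = 0.0434), and the other the dim Slc5a1 (−0.08). The thick limb and distal list had 14 of 17 genes lower, with 1 call higher and 2 lower. Kcnj1, the ROMK potassium channel, fell by 0.28 (limma, adjusted p = 0.0337), and did not pass with log2 naming (0.229). The dim Slc8a1, a sodium-calcium exchanger, fell by 0.06 (0.00866), and the dim Cldn19, a claudin of the thick limb, rose by 0.21 (0.021). The list of principal cells had 12 of 15 genes higher with a median of 0.02, and that of the inner medulla and thin limbs 6 of 11 with a median of 0.06, with 0 calls in either. On HLP+Apocynin array 3 the proximal list stood at −0.33 and the intercalated list at −0.49, the lowest of the 12 arrays. All 26 proximal tubule markers that have a probe were detected on enough of the cortex arrays to be tested.

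In the list of cytosolic ribosomal proteins 38 of 43 genes were higher, with a median of 0.11 and 4 calls. Rps14 rose by 0.27, Rps23 by 0.34, Rpl19 by 0.21 and Rpl10a by 0.34 (limma, adjusted p = 0.00975, 0.0182, 0.0279 and 0.0376). The list did not hold Rpl39, which passed with both sets of names, nor Rpl31 and Rpl17, picked after the calls were seen. These also rose, by 0.43, 0.41 and 0.27 (limma, adjusted p = 0.0215, 0.0411 and 0.025). With median scaling, which put the median change of the brighter probes at −0.12, the median of the list was −0.0011, and Rps14, Rps23 and Rpl19 did not pass, at 0.14, 0.21 and 0.08. The cell cycle list had 20 of 26 genes higher and 5 calls, of which Ccnb2 alone was at a mean log2 signal of 7 or more. Of the 5, Ccne1 was detected on 6 HLP+Apocynin arrays and 1 HLP array, and so met the filter through the group in which it was higher. In the list of antigen presentation and interferon, 22 of 27 genes were higher with a median of 0.17, and of 0.06 with log2 naming. 2 were called higher and 1 lower. Psme1, an activator of the proteasome, ranged from 12.11 to 12.49 (median 12.19) on the HLP+Apocynin arrays, against 11.73 to 11.94 (median 11.87) on the HLP arrays, without overlap, and rose by 0.37 (limma, adjusted p = 0.00361). RT1-DMa, which loads peptides on class II molecules, rose by 0.66 (0.0497). The dim Ifit2, an interferon-induced gene, fell by 0.11 (0.0268). With log2 naming Ifit2 passed (0.00704), and Psme1 and RT1-DMa did not (0.185 and 0.084). The respiratory chain list had 0 calls among 33 genes (23 lower, median −0.05), and the lists of the endoplasmic reticulum stress response and the lysosome had 0 among 21 and 27.

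**Figure D4:**
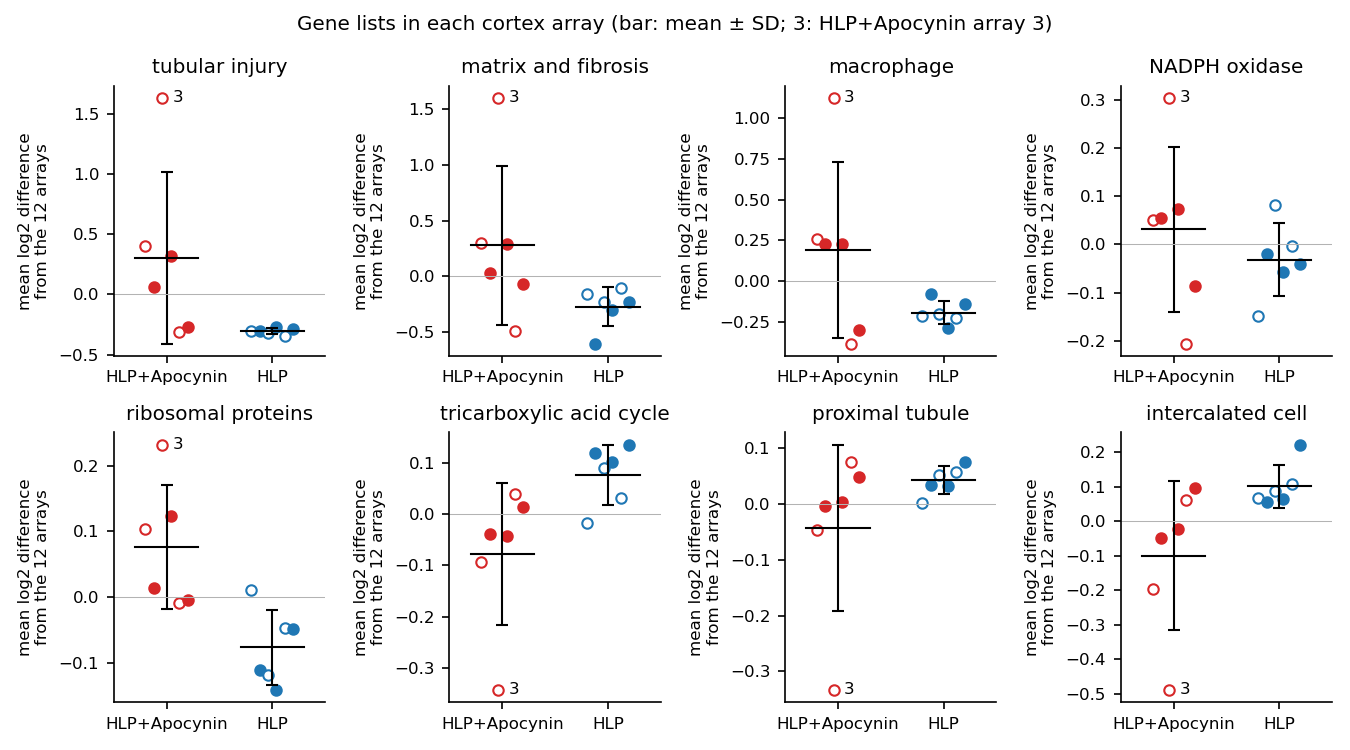
Mean log2 difference of the genes of 8 lists from their mean over the 12 cortex arrays, with HLP+Apocynin in red on the left and HLP in blue on the right. Bars give the mean and SD, filled points are arrays of the same group in both tables, and the 3 marks HLP+Apocynin array 3, which is at 1.63 for tubular injury and at −0.33 for the proximal tubule.

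Rats that received apocynin without HLP lay in the column block of the HLP+Apocynin arrays, and the controls in that of the HLP arrays, so Apocynin against Control gave the same contrast of treatment and block in other arrays. There 1693 of 11392 probes were called, or 14.9%. Of the 1137 probes called with HLP, 1047 had the same sign without it and 518 were called in the same direction. Of the 308 brighter ones, 258 had the same sign and 36 were called in the same direction, so most of the 518 were dim. The share with the same sign was not counted over all probes, nor either share over all brighter probes. Whether these counts exceed such shares was not tested. Hpgd rose by 0.92 (limma, adjusted p = 0.00831), Clu by 1.09 (0.00959), Grem1 by 1.29 (0.0134) and Tns1 by 0.74 (0.0231) in Apocynin against Control. Sugct fell by 0.90 (2.73e-04) and Slc22a2 by 1.06 (0.0195).

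Slc16a12, Timp3 and Car12 changed by −0.51, −0.10 and 0.16 in Apocynin against Control and did not pass (limma, adjusted p = 0.119, 0.735 and 0.503). The difference between the effects with and without HLP was tested directly. It was −1.03 ± 0.35 for Slc16a12, −0.94 ± 0.27 for Timp3 and −1.10 ± 0.31 for Car12 (SE), with adjusted p-values in limma of 0.196, 0.193 and 0.193. In limma 0 of 12268 probes passed this test, and 2058 had an unadjusted p under 0.05. HLP+Apocynin against Apocynin, both in the same block, also gave 0 calls, with 590 probes at an unadjusted p under 0.05. The log2 table gives HLP+Apocynin arrays 1, 3 and 5 to Apocynin and HLP arrays 1, 3 and 5 to Control. If those names are right, groups of both comparisons mix arrays with and without HLP, so their 0 calls cannot be read as no difference. With log2 naming the difference of effects also gave 0 calls, and HLP+Apocynin against Apocynin was not run.

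**Figure D5:**
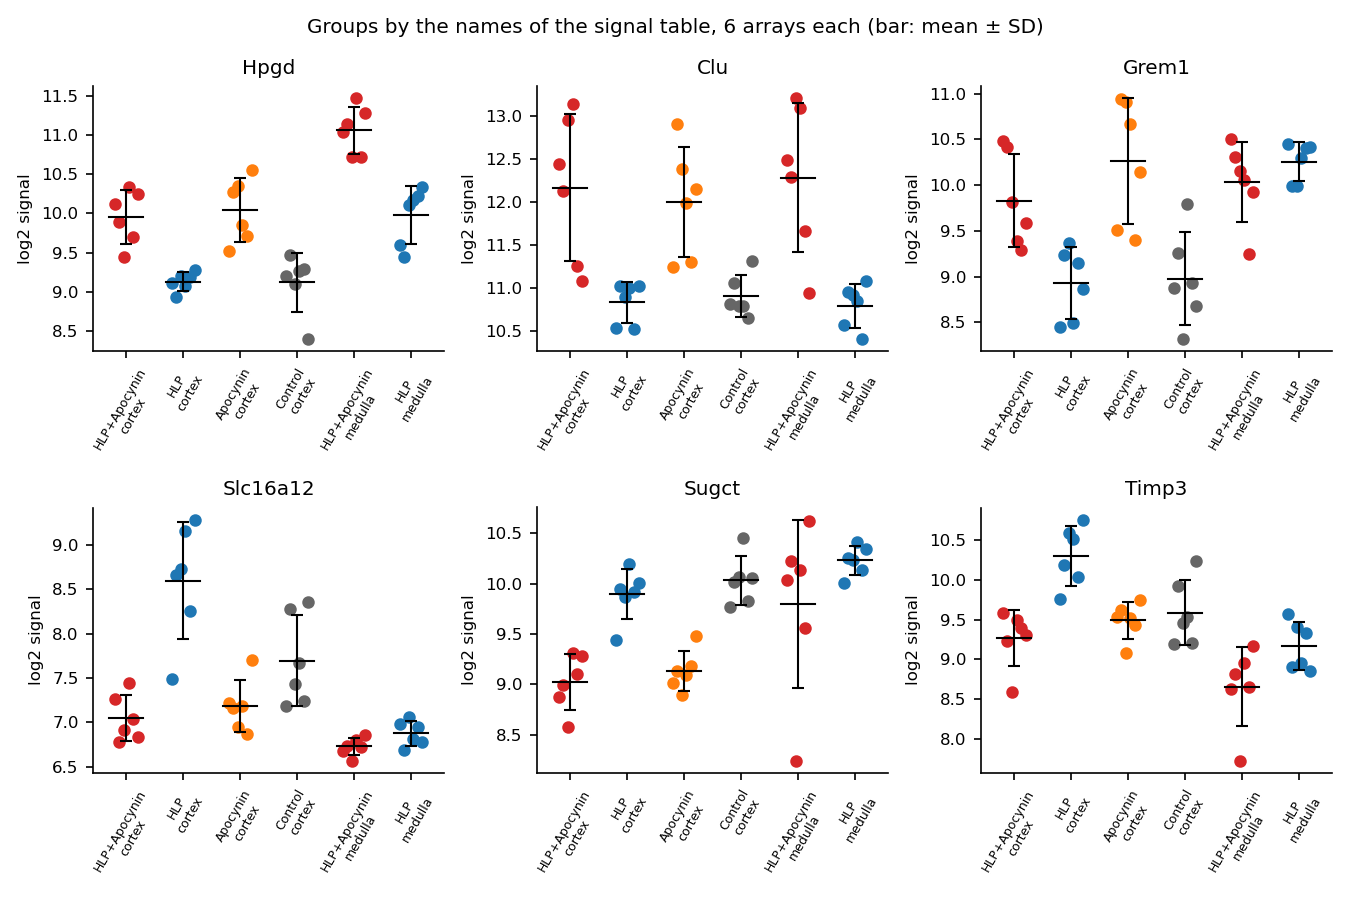
Log2 signal of 6 genes in 4 cortex groups and 2 medulla groups, named by the signal table, with 6 arrays in each. Bars give the mean and SD. Hpgd and Clu were higher in HLP+Apocynin than in HLP in both tissues and higher in Apocynin than in Control cortex, whereas Slc16a12 had its highest values in HLP cortex.

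In the medulla of the same rats, HLP+Apocynin against HLP gave 423 calls among 11341 probes (3.73%). Of the 1137 cortex calls 904 had the same sign there, 52 were called in the same direction and 2 in the opposite one. The share of all probes with the same sign in both tissues was not counted. Hpgd rose by 1.08 in the medulla (limma, adjusted p = 0.0183), Clu by 1.49 (0.034), Ccnb2 by 1.13 (0.0213) and Nedd4 by 0.74 (0.0196). Idh2 fell by 0.50 (0.0471), Kcnj1 by 0.77 (0.0457) and Car2 by 0.26 (0.0397).

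The effect differed between the tissues at 1154 of 12243 probes (9.43%), of which 246 had a mean log2 signal of 7 or more. Cortex and medulla arrays of like group and replicate number were assumed to come from the same rat. Slc16a12 changed by −1.55 in cortex and −0.15 in medulla, a difference of −1.40 (limma, adjusted p = 0.00101). Cmtm6 changed by −0.87 in cortex and −0.02 in medulla, a difference of −0.86 (adjusted p = 0.00155). Grem1 changed by 0.90 and −0.23, a difference of 1.13 (adjusted p = 0.00682). Hpgd, Clu and Nedd4 did not pass this test, with differences of −0.26, −0.15 and −0.13.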

How the data were processed

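RNA of renal cortex and medulla was read on Illumina RatRef-12 BeadChips. The signals the authors deposited are linear intensities without normalization, 1 per probe and array, each with a detection p-value from Genome Studio that sets the probe against negative controls. A further table the authors deposited holds normalized log2 values of those arrays. No genome build was needed. Gene symbols came from the platform annotation given with the tables, in which 13650 of 22226 probes have 1 symbol and 8576 none.

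Conditions came from the column names of the signal table. Each array was matched to its log2 column by correlation over all probes (r = 1 for the match, at most 0.997 for any other column), and groups under the log2 names came from the label of that column. Background was removed by normexp (limma's nec, which reads the detection p-values, with an offset of 16). The log2 of the corrected signals was then taken, and quantile normalization ran over 36 arrays, or over 48 where the Apocynin group entered. A probe was tested if its detection p-value was under 0.05 on 6 or more of the 12 arrays. The tests of the difference with and without HLP and of the difference between tissues asked for 6 or more of their 24 arrays. A probe could therefore enter any of these tests, the main one included, through a single group. Tests used limma 3.58.1 (R 4.3.3; lmFit, eBayes with a trend), with adjustment by Benjamini and Hochberg at 0.05. Cortex and medulla were set against each other with both arrays of a rat joined by duplicateCorrelation (statmod 1.5.0, correlation 0.297). Arrays of like group and replicate number were assumed to come from the same rat. The log2 table gives 40 of the 48 arrays another sample's name, so this pairing is uncertain. The brightest probe stood for a gene. Arrays give no depth, so their number limits the precision. The methods describe 1 RNA preparation from each rat's cortex and medulla for 3 groups, and do not describe the Apocynin group.

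In a test on simulated data for this comparison, 96 of 100 2-fold and 88 of 100 1.5-fold changes were recovered. The probes left unchanged, out of 11392 in all, gave 16 false calls. Changes were added to tested probes picked at random, dim ones of small SD included, with independent noise of each probe's own SD. No deviant array and no block was simulated, so these shares do not give the recovery or false calls of the brighter genes. The replicate numbers were not taken to pair the cortex arrays across groups. Genes were named by a rule: the largest called rises and falls, those called under both names, called members of the 46 lists, 28 genes the study names for the oxidase, its activation and crystals, and the smallest p-values of the 2 tests of differences. The comparison, members and lists were chosen with earlier results of these data known. The level of 7, and the alternatives that use it, were chosen after seeing the data.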

Additional observations from a re-analysis of the deposited data

Results flagged for a closer look

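Some single arrays lay far from the other 5 of their group, by Dixon's criterion, which chance meets in about 1 group of 20. On HLP+Apocynin array 3 these were Rarres2 (10.85), Gstm1 (11.36), Ccl2 (7.51) and Cd55 (6.47), each the highest of its group, and Timp3 (8.59) and Paqr7 (7.07), each the lowest. HLP+Apocynin array 6 was lowest for Ddx6 (10.12), array 2 was lowest for Flt1 (6.49) and highest for Agt (7.11), and array 5 was highest for Cyp2a2 (6.57). In HLP, array 3 was highest for Hjv (8.75) and Src (7.04), array 2 highest for Cyba (13.19) and array 1 lowest for Sucla2 (11.93). All are log2 signals, and whether such arrays outnumber those that chance gives was not tested.

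The effect of HLP+Apocynin against HLP differed between cortex and medulla at 1154 probes, with a median absolute difference of 0.09 on the log2 scale, so that most differences were small. Of the named genes that passed this test, 9 had a mean log2 signal of at least 7. The effect in cortex minus that in medulla was 1.13 for Grem1, −1.40 for Slc16a12, −0.86 for Cmtm6, −0.70 for Paqr7, −0.70 for Hjv, −0.51 for Mtrex, −0.53 for Dnajb4, −0.75 for Cyp4a1 and 0.43 for Ptk2b. Efcab10, at a mean log2 signal under 7, changed by 0.15 in cortex and 0.63 in medulla, a difference of −0.48. The other dim genes differed by −0.0614 (Itpr3), 0.123 (Msra), 0.0918 (Mmp2), −0.0585 (Cd55), 0.066 (Ccne1), 0.0687 (Cyp2a2), −0.0721 (Slc8a1), −0.0663 (Npr3), 0.0783 (Flt1), −0.0475 (Erg), 0.277 (Cabp7), 0.105 (Or4f61d), 0.0862 (St8sia6), 0.0805 (Ccdc60), −0.0817 (Padi2) and −0.0639 (Dnajc27). Flt1, Cyp2a2, Or4f61d, St8sia6 and Ccdc60 were detected on 6 HLP+Apocynin and 0 HLP cortex arrays. They met the filter of the cortex comparison only through the group in which they were higher, and their HLP cortex values lie at the floor. Ccne1 was detected on 6 HLP+Apocynin arrays and 1 HLP array, and Itpr3 and Cd55 on 1 HLP+Apocynin array and 6 HLP arrays. These genes also met the filter of the cortex comparison through the group in which they were higher, with the cortex values of the other group at the floor. The medulla arrays also counted in the filter of the test between tissues, and detection on them is not given here.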

How the results depend on the processing

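The count of 1137 called probes became 2868 with no filter on detection, 383 with probes detected on all 12 arrays, 1823 with 24 cortex arrays in the fit, 345 with the 3 against 3 arrays of the same group in both tables and 745 without a trend of the variance. Leaving out single arrays gave 744 to 1603. With probes of mean log2 signal 7 or more alone, 43 passed, and in that fit 140 with log2 naming, 83 (1 higher) with median scaling and 16 without HLP+Apocynin array 3. All other normalizations, 18 cortex arrays in the fit, the authors' log2 values and the log2 names stayed within 1.5 times. The methods' t-test gave 1018 after Benjamini-Hochberg adjustment and 1402 at their threshold of 0.01. With the replicate number as a block 848 probes passed, and 15 of the 76 named calls ended, among them Rarres2, Gstm1, St3gal2, RT1-DMa, Rnase4, Slc25a30, Hjv, Slc22a2, Cyp4a1, Cs, Kcnj1 and Car2. Deviations of same-numbered arrays correlated by −0.19 to 0.39 (median 0.14, against −0.03 for other numbers), and not every pair was above 0.1, so the numbers were not taken to pair the rats, and 3 of the 6 HLP+Apocynin arrays correlated best with the HLP array of like number.

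Over all alternatives the named genes gave 2455 values with the call as it was, 446 that lost it, 8 that gained it and 1 called change that turned round, that of the dim Cldn19, at 0.21 and, with log2 naming, −0.0305 (limma, adjusted p = 0.922). Calls under both names, the 0 calls for the effect with and without HLP, the difference between tissues and the median signal kept their result or stayed within 1.5 times under the alternatives run for them, with both-name counts of 599 to 860 and tissue counts of 772 to 1154. Signals near the floor limit what the dim calls can show.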
